A study of Homo sapiens with 6 samples.

Results

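The ZNF genes of chromosome 19 were followed in human foreskin fibroblasts that had been irradiated with UVB and then kept with or without sauchinone. Members were the genes on chromosome 19 whose symbol is ZNF, a number and at most 1 further letter, and that had at least 60 counts summed over the 6 libraries. Of 263 genes with such a symbol, 241 met the count minimum, out of 61806 genes in the whole table, and all 241 were among the 15704 genes that passed the filter on low counts.

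Most of these genes encode proteins with a row of C2H2 zinc fingers, small DNA-binding units in which 2 cysteines and 2 histidines hold a zinc ion. Many also carry a KRAB domain near their start, which recruits the scaffold protein TRIM28 (KAP1) and, through it, the histone methyltransferase SETDB1 and heterochromatin proteins. KRAB zinc finger proteins are best known for silencing transposable elements, and their genes lie in clusters on chromosome 19 that grew by repeated local duplication.

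The study compared 3 libraries of foreskin fibroblasts (HFF, wild type) given 40 mJ per square centimetre of UVB and 10 µM sauchinone, a lignan of the plant Saururus chinensis (UVB + sauchinone), with 3 libraries given the same UVB and vehicle (UVB). Cells were cultured for 48 h after irradiation, and both groups were irradiated, so that no comparison below involves unirradiated cells. The labels describe sauchinone in the medium after irradiation and, for pretreatment experiments, before it as well, and do not say which was used for these libraries. All libraries carry the same batch label, and the labels leave it unsaid whether replicates were separate cultures. The p-values therefore refer to the spread among these libraries, which could be technical. Totals were 21645464, 23076388 and 22929719 counts in UVB + sauchinone and 20984851, 22083818 and 23075536 counts in UVB. Summed levels of 10 fibroblast markers were 13550 to 13800 CPM (counts scaled to library size with edgeR's TMM factors) in UVB + sauchinone and 18980 to 20700 CPM in UVB, while 6 keratinocyte markers summed to at most 13.9 CPM in UVB + sauchinone and 11.7 CPM in UVB, and KRT5, KRT1 and DSG3 had no counts. Endothelial markers summed to at most 0.73 CPM in UVB + sauchinone and 0.67 CPM in UVB, with CDH5 and KDR at 0. Immune markers summed to at most 3.50 CPM in UVB + sauchinone and 3.61 CPM in UVB, with CD3E at 0. Melanocyte markers summed to 43.2 to 44.0 CPM in UVB + sauchinone and 55.9 to 64.1 CPM in UVB with DCT at 0, and pericyte and smooth muscle markers to 41.4 to 44.3 CPM in UVB + sauchinone and 70.0 to 81.3 CPM in UVB. The part of these shifts in the results below was not tested, and fewer cells of a type cannot be told apart from less RNA per cell.

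The repeated unit of the family is shown by 1 finger from each of 4 members whose levels are described below, 2 that rose (ZNF878 and ZNF468) and 2 that fell (ZNF91 and ZNF93). Each sequence is the coding DNA of the finger most like the other fingers of its own protein, 84 bases from the GENCODE release 29 transcripts (GRCh38), written 5′ to 3′, with the codons of the zinc-binding cysteines and histidines in capitals.
ZNF878: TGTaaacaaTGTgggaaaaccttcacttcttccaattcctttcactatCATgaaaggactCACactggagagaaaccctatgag
ZNF468: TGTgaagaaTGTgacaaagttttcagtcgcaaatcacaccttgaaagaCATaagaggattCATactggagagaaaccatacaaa
ZNF91: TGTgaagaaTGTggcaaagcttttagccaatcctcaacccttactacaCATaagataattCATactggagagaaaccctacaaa
ZNF93: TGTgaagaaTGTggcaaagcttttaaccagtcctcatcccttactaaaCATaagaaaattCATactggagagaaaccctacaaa
The finger of ZNF91 was identical to that of ZNF93 at 94% of bases, to that of ZNF468 at 78.6% and to that of ZNF878 at 63.1%. Between the 2 members that rose, 60.7% of the bases were identical. Of the 36 bases between the second cysteine codon and the first histidine codon, where the residues that contact DNA are found, 26 differed among the 4 fingers. Of the 21 bases after the second histidine codon, which encode most of the link to the next finger, 4 differed. ZNF91 held 31 fingers, the most of any member, against 16 in ZNF93, 14 in ZNF878 and 10 in ZNF468.

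Members were expressed at low levels. Their mean FPKM (the authors' level, scaled for exonic size and library total) over the 6 libraries ranged from 0.145 to 17.6 with a median of 1.78, against a median of 3.06 over all genes tested. Only 18 members averaged over 5 FPKM and 66 averaged under 1 FPKM. Summed over the 241 members, levels were 3168, 3452 and 3065 CPM in UVB + sauchinone and 2893, 2667 and 3223 CPM in UVB. Members took 0.324%, 0.346% and 0.312% of all counts in UVB + sauchinone and 0.286%, 0.261% and 0.317% in UVB. The groups overlapped in both measures, and UVB replicate 3 lay among the UVB + sauchinone libraries. On the log2(CPM + 0.5) scale, the median member deviated from its own mean over the 6 libraries by 0.054, 0.14 and 0.028 in UVB + sauchinone and by −0.071, −0.19 and 0.033 in UVB. The same medians over all genes tested lay between 0.0023 and 0.0081 in every library. ZNF genes on other chromosomes shared the order of the libraries within each group, with medians of 0.049, 0.096 and 0.020 in UVB + sauchinone and −0.029, −0.13 and 0.057 in UVB. The other tested genes of chromosome 19 had another order. Their medians were 0.147, 0.0717 and 0.109 in UVB + sauchinone and −0.0731, −0.0255 and −0.202 in UVB. The libraries with the highest member level of their group, UVB + sauchinone replicate 2 and UVB replicate 3, were also those with the most genes detected, 25259 and 25168, against 24223 to 24718 in the other libraries, and the part of this in the results was not tested.

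**Figure D1:**
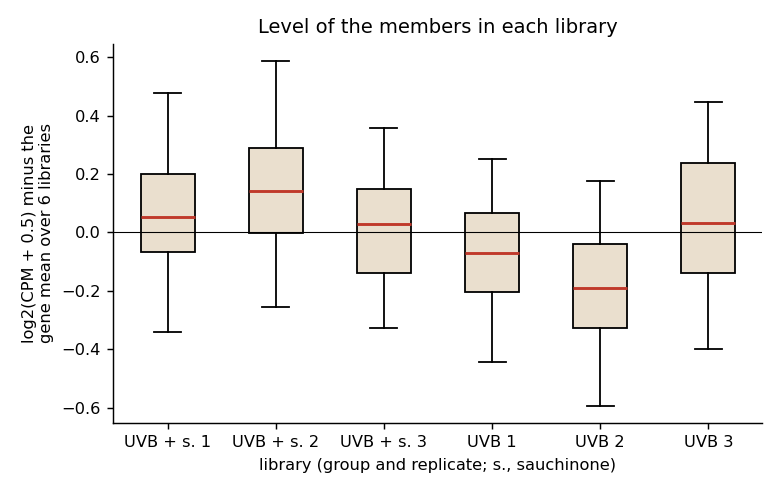
Deviation of the 241 members from their own mean over the 6 libraries, as log2(CPM + 0.5), in each library (UVB + sauchinone left, UVB right). Boxes span the quartiles, whiskers the 5th to 95th percentiles and red lines the medians, which are highest in UVB + sauchinone replicate 2 (0.14) and lowest in UVB replicate 2 (−0.19).

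More members rose than fell with sauchinone. Calls were made with the quasi-likelihood test of edgeR, adjusted by Benjamini-Hochberg over every gene tested (adjusted p under 0.05): 67 members (27.8%) were higher, 27 (11.2%) were lower and 147 were not called. Over all genes tested 24.7% were called higher and 24.9% lower, so the share of risers among members was near the background, and the share of fallers was below it. Calls in either direction were made for 39.0% of members and for 49.6% of all genes. The median log2 fold change of members was 0.14 (quartiles −0.11 and 0.44), against 0.0071 over all genes, with 156 of 241 members above 0. In 78 members (32.4%) every UVB + sauchinone library lay above every UVB library, against 28.6% of all genes, and in 27 members (11.2%) every one lay below, against 28.5%. Changes were small: 8 members were called at least 2-fold higher and 1 at least 2-fold lower, where 11.6% of all genes were called with a change of that size in either direction. The count of fallers, 27 in all libraries, depended on single libraries. It was 23, 34 and 14 without UVB replicates 1, 2 and 3, and 17, 19 and 16 without those of UVB + sauchinone. Between 21.1% and 24.5% of all genes were called lower in the same omissions. The count of risers, 67 in all libraries, ran from 54 to 73 over all 6 omissions.

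The 240 ZNF genes on other chromosomes gave 69 higher and 43 lower with a median log2 fold change of 0.10, and the other 844 tested genes of chromosome 19 gave 312 higher and 73 lower with a median of 0.22. A low share of fallers was therefore seen both in the members (11.2%) and in the rest of chromosome 19 (8.65%), and to a lesser degree in ZNF genes elsewhere (17.9%). No test between these lists was made. Of 11 zinc finger genes of chromosome 19 with other symbols, such as those starting ZFP or ZSCAN, 3 were higher and none was lower, with a median of 0.17.

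ZNF699 (ENSG00000196110, chr19:9291140-9309838, minus strand) encodes a KRAB zinc finger protein and was the member with the smallest adjusted p. It was at 30.8, 35.4 and 30.9 CPM in UVB + sauchinone, against 14.5, 12.6 and 16.3 CPM in UVB. Every UVB + sauchinone library was above every UVB library, by a log2 fold change of 1.16 ± 0.11 (SE; edgeR adjusted p = 1.7e-08). The largest rise was that of ZNF878 (ENSG00000257446, chr19:12043805-12052961, minus strand), which has 14 fingers and a KRAB motif. ZNF878 was at 2.17, 2.46 and 1.80 CPM in UVB + sauchinone, against 0.626, 0.463 and 0.353 CPM in UVB. Its log2 fold change was 2.15 ± 0.35 (edgeR adjusted p = 2.5e-05). Its levels in UVB rested on only 13, 10 and 8 counts, where 3 counts amount to 0.13 to 0.143 CPM. In addition 11.4% of its 150-base sequences also occur in transcripts of other genes, so that its counting is uncertain. ZNF823 is a further KRAB gene with 15 fingers, and it was at 16.9, 20.8 and 13.4 CPM in UVB + sauchinone, against 7.08, 6.49 and 9.89 CPM in UVB. Its groups did not overlap, and it rose by 1.12 ± 0.17 on the log2 scale (edgeR adjusted p = 6.9e-06). ZNF468 (chr19:52838010-52857649, minus strand) was the most highly expressed of the large rises, at 87.1, 104.8 and 77.0 CPM in UVB + sauchinone, against 44.5, 38.7 and 48.5 CPM in UVB. Its log2 fold change was 1.03 ± 0.11 (edgeR adjusted p = 4.1e-08), but 50.5% of its 150-base sequences occur in transcripts of other genes, so part of this count could belong to other genes.

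ZNF114, which has only 3 fingers and lies over 1 Mb from any other member, was at 1.85, 2.29 and 1.63 CPM in UVB + sauchinone, against 0.481, 0.463 and 0.706 CPM in UVB. The rise of ZNF114 was 1.79 ± 0.35 on the log2 scale (edgeR adjusted p = 0.00018), with no overlap between the groups. Levels of ZNF114 in UVB rested on only 10, 10 and 16 counts. ZNF799 was at 7.82, 8.94 and 7.46 CPM in UVB + sauchinone, against 4.72, 3.61 and 3.75 CPM in UVB, and rose on the log2 scale by 1.00 ± 0.17 (edgeR adjusted p = 3.1e-05). The calls of ZNF628 and ZNF296 were lost without some libraries. ZNF628, whose 16 fingers come without a KRAB motif, was at 2.26, 1.04 and 1.41 CPM in UVB + sauchinone, against 0.722, 0.880 and 0.265 CPM in UVB (log2 fold change 1.33 ± 0.41, edgeR adjusted p = 0.010). Its call was lost without UVB replicate 3 (0.96, edgeR adjusted p = 0.059) and without UVB + sauchinone replicate 1 (0.98, edgeR adjusted p = 0.10), within a range of 0.0022 to 0.10 over all alternatives. ZNF296, which also lacks a KRAB motif, was at 1.63, 1.25 and 1.2 CPM in UVB + sauchinone, against 0.578, 0.741 and 0.662 CPM in UVB (log2 fold change 1.03 ± 0.35, edgeR adjusted p = 0.019). It was not called without UVB replicate 1, UVB replicate 3 or UVB + sauchinone replicate 1 (edgeR adjusted p = 0.076, 0.051 and 0.094), within a range of 0.011 to 0.094 over all alternatives.

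The largest falls were smaller than the largest rises. ZNF233, the only member called at least 2-fold lower, was at 1.22, 0.951 and 1.33 CPM in UVB + sauchinone, against 1.97, 2.22 and 3.53 CPM in UVB. The groups did not overlap, and the log2 fold change was −1.14 ± 0.29 (edgeR adjusted p = 0.0024). The span of ZNF233 lies within that of ZNF235 on the other strand, which was called higher (0.59, edgeR adjusted p = 0.047). Whether counting used strand is not stated, so reads of this pair may not be told apart. ZNF528 (chr19:52397849-52418412, plus strand), a KRAB gene with 15 fingers, had the smallest adjusted p of the falls. It was at 35.5, 36.1 and 32.8 CPM in UVB + sauchinone, against 49.4, 48.6 and 54.0 CPM in UVB, and fell by 0.54 ± 0.090 on the log2 scale (edgeR adjusted p = 2.8e-05). ZNF83, 1 of the 4 longest members with a span of 96.4 kb, was at 18.3, 19.01 and 17.4 CPM in UVB + sauchinone, against 27.8, 24.3 and 29.6 CPM in UVB (log2 fold change −0.58 ± 0.11, edgeR adjusted p = 9.5e-05), and fell by 0.35 with a trend of counts on span removed. ZNF415 was at 9.36, 9.55 and 8.70 CPM in UVB + sauchinone, against 12.5, 15.98 and 13.3 CPM in UVB (log2 fold change −0.60 ± 0.13, edgeR adjusted p = 0.00063). In ZNF233, ZNF528, ZNF83 and ZNF415 every UVB + sauchinone library was below every UVB library. ZNF439, ZNF613 and ZNF69 fell by 0.53, 0.51 and 0.50 on the log2 scale (edgeR adjusted p = 0.010, 0.020 and 0.010). Those calls were lost for ZNF439 without UVB + sauchinone replicate 1 (0.096), for ZNF613 without UVB + sauchinone replicate 2 (0.13) or UVB replicate 1 (0.075) and for ZNF69 without UVB replicate 3 (0.072) or UVB + sauchinone replicate 2 (0.052). Their highest edgeR adjusted p over all alternatives were 0.096, 0.13 and 0.072.

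**Figure D2:**
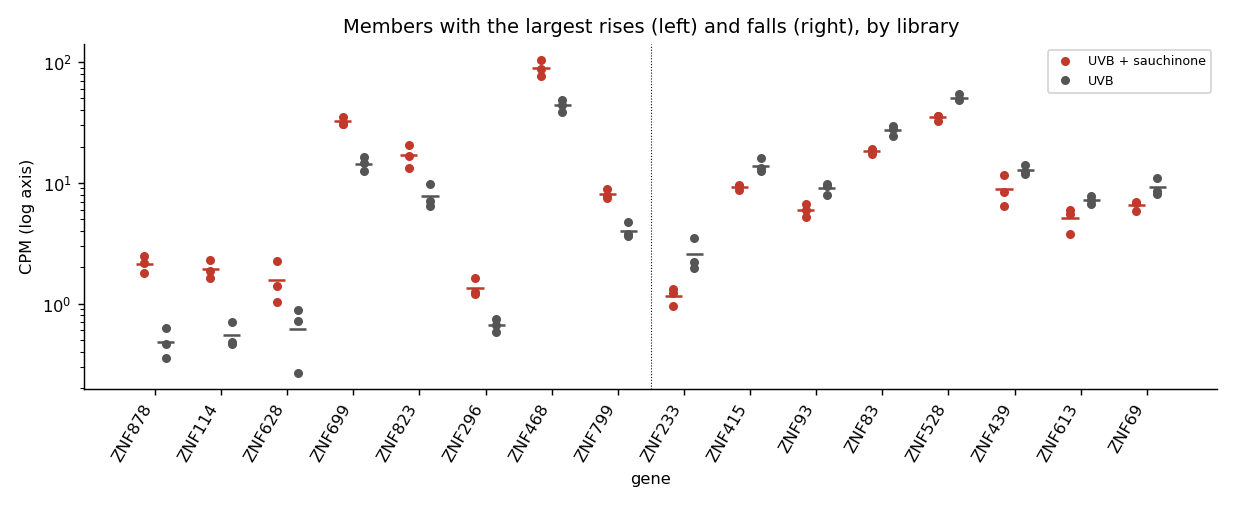
CPM (log axis) of the 8 members with the largest rises, left of the dotted line, and the 8 with the largest falls, right of it, among members that were called, averaged at least 1 CPM and had groups that did not overlap; points are libraries and bars the group means (3 each), UVB + sauchinone in red left of UVB in grey. Log2 fold changes range from 2.15 in ZNF878 to −1.14 in ZNF233.

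ZNF91 and ZNF93 are known to bind and silence families of retrotransposons in human cells, ZNF91 the SVA elements and ZNF93 a group of older L1 elements. ZNF91 (ENSG00000167232, chr19:23304991-23395471, minus strand) was at 13.2, 15.1 and 15.1 CPM in UVB + sauchinone, against 21.2, 16.7 and 23.3 CPM in UVB. The groups did not overlap, and the log2 fold change was −0.50 ± 0.13 (edgeR adjusted p = 0.0022). This call was lost when a trend of counts with genomic span was removed (−0.28, edgeR adjusted p = 0.0504) or one with exonic size (−0.24, edgeR adjusted p = 0.097), while it held in the other 15 of 17 alternatives. ZNF93 (ENSG00000184635, chr19:19900913-19963464, plus strand) was at 6.01, 6.74 and 5.27 CPM in UVB + sauchinone, against 9.34, 7.97 and 9.80 CPM in UVB. Its log2 fold change was −0.59 ± 0.15 (edgeR adjusted p = 0.0027), and the call held in all 17 alternatives.

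Other members with described roles mostly did not pass the test. ZNF274, which brings SETDB1 to the 3′ ends of zinc finger genes themselves, was at 28.3, 31.7 and 21.8 CPM in UVB + sauchinone, against 28.6, 26.0 and 27.2 CPM in UVB (log2 fold change −0.00063 ± 0.12, edgeR adjusted p = 0.998). ZNF350 (ZBRK1, a BRCA1-binding repressor of the damage-response gene GADD45A) was at 10.9, 12.9 and 8.66 CPM in UVB + sauchinone, against 8.09, 8.52 and 10.6 CPM in UVB, with overlapping groups (0.25 ± 0.15, edgeR adjusted p = 0.19). ZNF649, described as a repressor of serum response element and AP-1 reporters, was an exception. It was at 13.3, 17.4 and 13.7 CPM in UVB + sauchinone, against 10.4, 8.66 and 9.58 CPM in UVB, and rose by 0.63 ± 0.14 on the log2 scale (edgeR adjusted p = 0.00051), with no overlap between the groups. ZNF675, known as an inhibitor of signalling through TRAF6 and the longest member at 161.6 kb, was at 10.3, 9.94 and 9.13 CPM in UVB + sauchinone, against 11.1, 10.4 and 15.1 CPM in UVB (−0.32 ± 0.14, edgeR adjusted p = 0.072). It passed only without UVB replicate 2 (−0.42, edgeR adjusted p = 0.018). The log2 fold changes of ZNF331, ZNF224, ZNF568, ZNF558, ZNF432 and ZNF382 lay between −0.11 and 0.026, with edgeR adjusted p between 0.485 and 0.937. Their groups overlapped, and of these ZNF224 shares 38% of its 150-base sequences with other genes.

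The 6 members with the highest FPKM were ZNF146, ZNF542P, ZNF468, ZNF561, ZNF317 and ZNF266. ZNF146, which consists almost wholly of 10 fingers and has no KRAB motif, averaged 15.3 FPKM in UVB + sauchinone and 19.9 FPKM in UVB, the highest level of any member. It was at 59.4, 69.2 and 59.3 CPM in UVB + sauchinone, against 80.3, 72.1 and 99.4 CPM in UVB, and fell by 0.42 ± 0.10 on the log2 scale (edgeR adjusted p = 0.0016), a call lost only against a minimum fold change of 1.2 (0.0599, the highest over all alternatives). The pseudogene ZNF542P averaged 15.8 FPKM in UVB + sauchinone and 11.4 FPKM in UVB and rose by 0.43 ± 0.083 (edgeR adjusted p = 0.00016), or by 0.25 with the span trend removed. Reads of ZNF542P may be hard to place, since 15.2% of its 150-base sequences occur in other genes and its span overlaps ZNF582 and ZSCAN5A. ZNF317 rose by 0.52 ± 0.10 (edgeR adjusted p = 0.00018), at 10.9 FPKM in UVB + sauchinone and 7.34 FPKM in UVB. ZNF561 averaged 10.99 FPKM in UVB + sauchinone and 12.6 FPKM in UVB (−0.24 ± 0.085, edgeR adjusted p = 0.022), a call that was lost without any 1 of 4 libraries (edgeR adjusted p = 0.072 and 0.057 without UVB replicates 1 and 3, and 0.095 and 0.060 without those of UVB + sauchinone) and that reached 0.54 over all alternatives. ZNF266 was not called, at 8.32 FPKM in UVB + sauchinone and 7.29 FPKM in UVB (0.15 ± 0.093, edgeR adjusted p = 0.20), except without UVB replicate 3 (0.23, edgeR adjusted p = 0.030).

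Members differed by their place on the chromosome. With a new cluster started wherever neighbouring members lay over 1 Mb apart, they formed 15 clusters, 7 of which held at least 14 members. The cluster nearest the end of the long arm, from ZNF628 to ZNF446 (55.5 to 58.5 Mb), held 59 members, of which 28 (47.5%) were called higher and 1 lower, with a median log2 fold change of 0.36, where 24.7% of all genes were called higher. The cluster of ZNF91, from ZNF101 to ZNF254 (19.7 to 24.1 Mb), held 31 members, of which 1 (3.23%) was called higher and 7 (22.6%) lower, with a median of −0.19. That share of fallers is near the 24.9% of all genes and above the 11.2% of all members. Of the tested neighbours that are not members, 11 of 41 (26.8%) were higher and 0 lower in the first region, a share of risers near that of all genes, and 0 of 15 were higher and 2 (13.3%) lower in the second. The other large clusters lay between these. Near 11.5 to 12.6 Mb 8 of 26 were higher and 3 lower (median 0.32), near 51.6 to 53.6 Mb 12 of 42 higher and 6 lower (0.11), and near 36.2 to 37.8 Mb 2 of 27 higher and 3 lower (0.019). Near 43.5 to 45.1 Mb 7 of 24 were higher and 3 lower (0.093), and near 7.07 to 9.79 Mb 5 of 14 were higher and 2 lower (0.17). The count of 7 lower members in the cluster of ZNF91 was 4 without UVB replicate 3, UVB + sauchinone replicate 2 or UVB + sauchinone replicate 3.

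The 7 fallers in the cluster of ZNF91 were ZNF91, ZNF93, ZNF254, ZNF506, ZNF429, ZNF43 and the pseudogene ZNF826P, named here after their values were seen. ZNF254 was at 7.05, 9.51 and 7.07 CPM in UVB + sauchinone, against 11.8, 8.99 and 13.8 CPM in UVB (−0.55 ± 0.16, edgeR adjusted p = 0.0071), with groups that overlapped in 1 library, and it was not called with the span trend removed (−0.32, edgeR adjusted p = 0.0999, the highest over all alternatives). ZNF506, ZNF429, ZNF43 and ZNF826P fell by 0.34, 0.34, 0.35 and 0.47 (edgeR adjusted p = 0.017, 0.027, 0.045 and 0.048), and each of these 4 calls was lost in at least 5 of 17 alternatives, with adjusted p of up to 0.42, 0.23, 0.34 and 0.25. Single libraries decided them: ZNF506 was not called without UVB replicate 3, UVB + sauchinone replicate 1 or UVB + sauchinone replicate 2, ZNF43 not without UVB replicate 3, UVB + sauchinone replicate 2 or UVB + sauchinone replicate 3. Over these omissions ZNF429 was called only without UVB replicate 2 or UVB + sauchinone replicate 2, and ZNF826P only without UVB replicate 1 or UVB + sauchinone replicate 1. The 1 riser, ZNF101, was at the start of the cluster and had its shortest span, 14.7 kb (0.57 ± 0.12, edgeR adjusted p = 0.00036).

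In the last cluster the largest rises after ZNF628 were those of ZNF787, ZNF324B, ZNF446, ZNF324 and ZNF584. ZNF787, a 7-finger gene without a KRAB motif, was at 12.4, 9.81 and 8.61 CPM in UVB + sauchinone, against 5.39, 6.62 and 5.56 CPM in UVB (0.81 ± 0.16, edgeR adjusted p = 0.00021). ZNF324B rose by 0.77 and ZNF324 by 0.75 (edgeR adjusted p = 0.0036 and 0.00034), a pair of neighbouring KRAB genes. Of the 150-base sequences of ZNF324, 25.6% occur in transcripts of other genes (5.0% for ZNF324B), so part of its count could belong to other genes. Which genes share them was not recorded. ZNF584 rose by 0.74 (edgeR adjusted p = 4.7e-05). ZNF446 rose by 0.77 (edgeR adjusted p = 0.028), and its call was lost without UVB replicate 3 (0.44, 0.17), UVB + sauchinone replicate 1 (0.68, 0.094) or UVB + sauchinone replicate 3 (0.73, 0.080), with a range of 0.0076 to 0.17 over all alternatives. The share of its 150-base sequences that occur in transcripts of other genes is 39.0%, so its counting is uncertain as well. ZNF154, the only faller of the cluster, fell by 0.47 (edgeR adjusted p = 0.0038), a call lost only against a minimum fold change of 1.2 (0.0549, the highest over all alternatives).

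**Figure D3:**
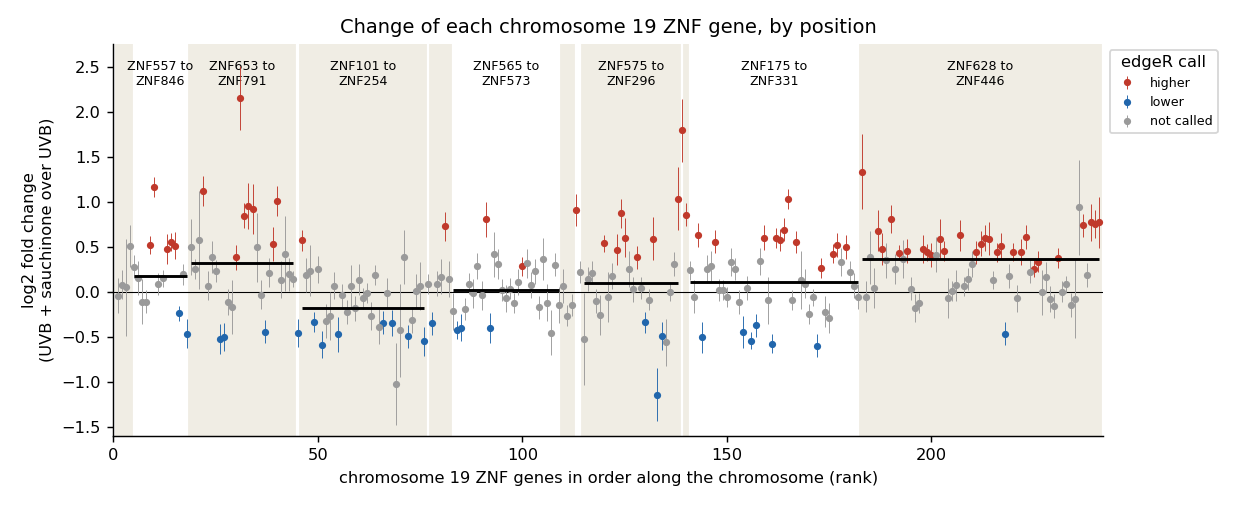
Log2 fold change (UVB + sauchinone over UVB, error bars SE) of the 241 members in their order along chromosome 19; shading alternates between the 15 clusters, and black lines are the medians of clusters with at least 14 members. The median is lowest from ZNF101 to ZNF254 (−0.19, 7 of 31 lower) and highest from ZNF628 to ZNF446 (0.36, 28 of 59 higher).

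Genomic span, from the first to the last base of a gene, ranged from 3.12 to 161.6 kb in members with a median of 24.2 kb. The balance of calls went from mostly higher in short members to mostly lower in the longest. Under 10 kb 11 of 26 members were higher and 1 lower (median log2 fold change 0.30), and from 10 to 20 kb 27 of 70 were higher and 4 lower (0.29). From 20 to 40 kb 22 of 94 were higher and 9 lower (0.12), from 40 to 80 kb 7 of 42 higher and 9 lower (−0.027), and from 80 kb on 0 of 9 higher and 4 lower (−0.32). Across the 241 members, Spearman's rho of log2 fold change with span was −0.35, a description over genes that share the same 6 libraries, and it was −0.30 without the 9 longest. All genes tested had −0.39, ZNF genes on other chromosomes −0.45 and the other tested genes of chromosome 19 −0.15. Without UVB replicate 3, the members of at least 40 kb gave 7 higher and 6 lower with a median of 0.014, against 7 and 13 with a median of −0.074 in all libraries. There were also 6 higher and 6 lower without UVB + sauchinone replicate 3, and 9 lower without UVB + sauchinone replicate 2. The 5 fallers under 20 kb became 2 without UVB replicate 3, UVB + sauchinone replicate 1 or UVB + sauchinone replicate 3, and 3 without UVB replicate 1, while between 29 and 34 members of that span were higher, against 38 in all libraries.

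Among genes that were not members, the share called higher was 30.9% under 10 kb, 34.7% from 10 to 20 kb, 29.8% from 20 to 40 kb, 21.2% from 40 to 80 kb and 8.98% from 80 kb on. Their share called lower was 8.56%, 13.5%, 17.7%, 27.7% and 56.1% in the same ranges. Their median log2 fold change was 0.20 under 10 kb and −0.41 from 80 kb on, against 0.30 and −0.32 in members. Few members are that long: 9 of 241, against 3498 of the 15463 other tested genes. With a smooth trend of counts on span removed in each library, 51 members were higher and 24 lower with a median of 0.063, against 0.017 over all genes. The last cluster then gave 18 of 59 higher and 1 lower (median 0.23) and the cluster of ZNF91 1 of 31 higher and 2 lower (−0.11). The highest median, 0.29, was then that of the cluster near 11.5 to 12.6 Mb. The clusters also differ in span, with medians of 13.5 kb in the last cluster and 39.4 kb in the cluster of ZNF91. Of members of at least 20 kb, 10 of 21 were higher and 0 lower in the last cluster (median log2 fold change 0.25, median span 30.2 kb), against 0 of 29 higher and 7 lower in the cluster of ZNF91 (−0.23, 41.7 kb), so these members differ in span as well.

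The shortest and the longest members show the spread at each end. ZNF784, of 3.83 kb, was at 3.35, 2.85 and 3.56 CPM in UVB + sauchinone, against 2.31, 2.04 and 1.77 CPM in UVB (0.67 ± 0.23, edgeR adjusted p = 0.017). ZNF784 was not called without UVB replicate 3 (0.061) or UVB + sauchinone replicate 3 (0.063), with an edgeR adjusted p of 0.012 to 0.11 over all alternatives. ZNF524, ZNF579 and ZNF414, the other members among the 4 shortest, were not called, at 0.38, −0.056 and −0.11 (edgeR adjusted p = 0.30, 0.81 and 0.74). ZNF420, of 122.5 kb, was at 8.45, 8.60 and 7.28 CPM in UVB + sauchinone, against 7.80, 7.78 and 10.0 CPM in UVB, with overlapping groups (−0.075 ± 0.15, edgeR adjusted p = 0.71).

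**Figure D4:**
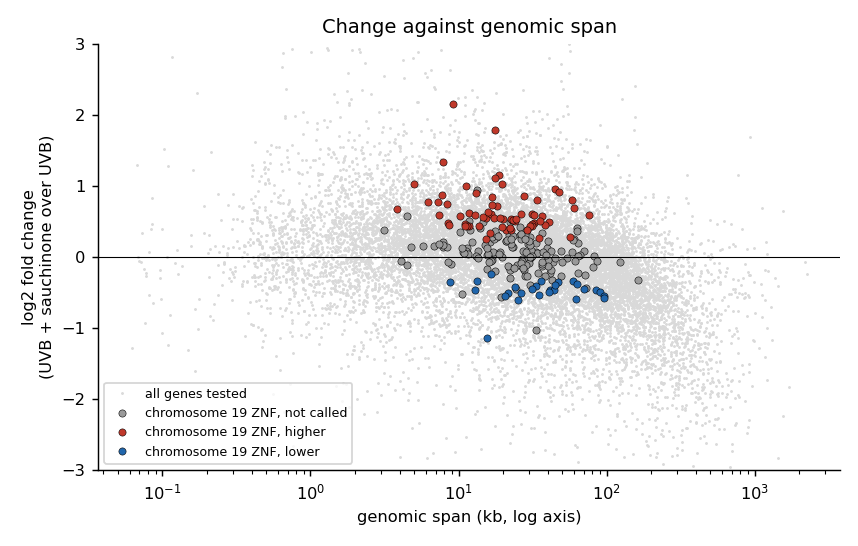
Log2 fold change (UVB + sauchinone over UVB) against genomic span in kb (log axis) for all genes tested (light grey) and for the 241 members, coloured by edgeR call; 54 genes beyond 3 on the log2 scale, none of them a member, are not drawn. Members lie within the cloud of all genes and end at 161.6 kb, short of the longest genes.

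**Figure D5:**
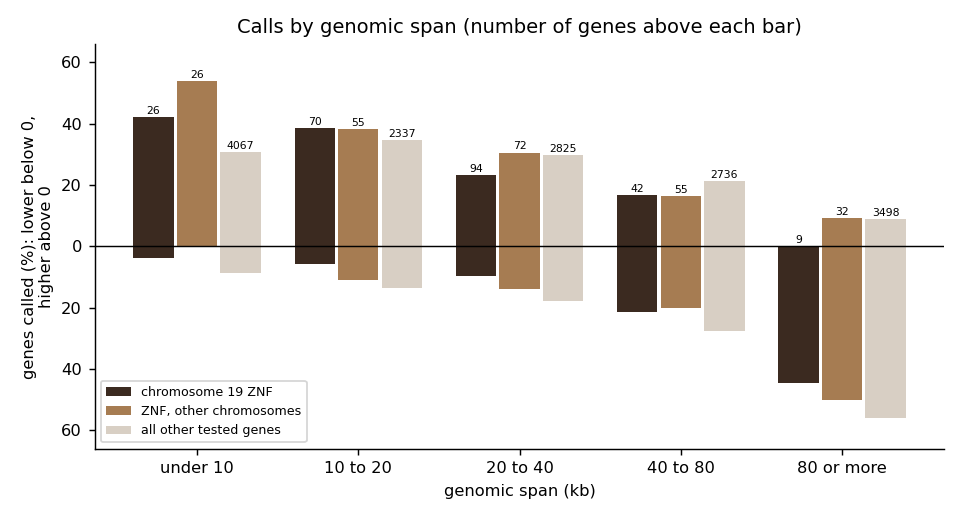
Percent of genes called higher (above 0) and lower (below 0) in UVB + sauchinone in 5 ranges of genomic span, for members, ZNF genes on other chromosomes and all other tested genes, with the number of genes above each bar. The share of members called higher is 42.3% under 10 kb and 0% from 80 kb on, where 44.4% are called lower.

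Of the 241 members, 232 are protein coding in GENCODE release 29 and 9 are pseudogenes. Translated coding sequences held a median of 12 C2H2 fingers (0 to 31), and a KRAB motif was found within 250 residues of the start in 198 of 232. Among members with the motif 56 (28.3%) were higher and 25 (12.6%) lower (median 0.12). Among the 34 without it 9 (26.5%) were higher and 1 (2.94%) lower (0.23), and their median span was 12.2 kb, against 26.5 kb in those with the motif. Over all spans, both shares of risers are near the 24.7% of all genes, and both shares of fallers are below the 24.9%. Without single libraries, the count of 25 fallers with the motif ran from 12 to 29, and it was 12, 15 and 15 without UVB replicate 3, UVB + sauchinone replicate 1 and UVB + sauchinone replicate 3. Under 20 kb the medians were 0.30 with the motif (71 members) and 0.22 without (21 members). In that span 43.7% were higher and 7.04% lower with the motif, and 28.6% and 0% without. From 20 kb on the medians were 0.019 with the motif (127 members) and 0.25 without (13 members). There 19.7% were higher and 15.7% lower with the motif, and 23.1% and 7.69% without. Shares of genes that were not members are given by span above. By number of fingers, 3 of 14 members (21.4%) with up to 5 fingers were higher and 0 lower. Of those with 6 to 10, 21 of 69 (30.4%) were higher and 10 lower. With 11 to 15, 29 of 96 (30.2%) were higher and 12 lower, and with at least 16, 12 of 53 (22.6%) were higher and 4 lower. These shares of risers are near the 24.7% of all genes. Spearman's rho of log2 fold change with the number of fingers was −0.091 across members, a weak relation that is given as a description.

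Duplicated genes can share reads, and so can genes whose transcripts overlap at the same place. In 122 members no 150-base sequence (the read length in the labels) occurred in transcripts of another gene. Sequences were compared on either strand with transcripts of every other gene. The measure therefore does not separate duplicated genes from overlapping ones, such as ZNF559 (10.2% shared), whose span overlaps ZNF559-ZNF177. Of these 34 (27.9%) were higher and 17 (13.9%) lower with a median of 0.16. Over 10% was shared in 37 members, of which 12 (32.4%) were higher and 0 lower (median 0.22). Spans overlapped no other tested gene in 139 members (37 or 26.6% higher, 13 or 9.35% lower, median 0.13). They did so in 102 (30 or 29.4% higher, 14 or 13.7% lower, 0.18), in 74 of them on the opposite strand. Over all genes tested 24.7% were higher and 24.9% lower, so in each of these classes risers were a little above background and fallers below it. Whether counting used strand is not stated in the sources used here, so reads of such pairs may not be told apart.

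Promoters are shown for 2 members, the largest called rise of the last cluster and the largest called fall of the cluster of ZNF91 among promoters that hold the letters CCGGAAG and whose RefSeq start lies within 1 kb of the start in the deposited table. Each is the 250 bases before the RefSeq gene start (GRCh38.p14), written 5′ to 3′ along the gene, and capitals mark CCGGAAG (the core of ETS factor sites), CCAAT (the NF-Y box) and GGGCGG (the GC box of SP1) on either strand. The stretch of ZNF787 is chr19:56121296-56121545 on the minus strand and that of ZNF91 is chr19:23395472-23395721 on the minus strand, and both end next to the first base of the gene in the deposited table.
ZNF787: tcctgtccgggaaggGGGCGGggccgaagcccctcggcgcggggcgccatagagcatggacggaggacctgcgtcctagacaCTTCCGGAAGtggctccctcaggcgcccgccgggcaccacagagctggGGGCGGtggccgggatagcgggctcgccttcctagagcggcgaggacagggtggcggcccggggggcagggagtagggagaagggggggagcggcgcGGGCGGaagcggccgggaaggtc
ZNF91: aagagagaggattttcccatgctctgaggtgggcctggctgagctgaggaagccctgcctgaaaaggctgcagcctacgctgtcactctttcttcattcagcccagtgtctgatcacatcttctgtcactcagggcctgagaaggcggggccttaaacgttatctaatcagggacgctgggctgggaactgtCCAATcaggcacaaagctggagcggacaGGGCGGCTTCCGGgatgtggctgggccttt
In ZNF787 the letters and their reverse complement overlap in a palindrome, and 3 GC boxes are found. ZNF91 holds 1 NF-Y box, 1 GC box and, next to that box, the letters CCGGAAG on the other strand. RefSeq promoters of 300 bases (250 before to 50 after the start) were matched by symbol for 206 members, and 93 (45.1%) held CCGGAAG on either strand, against 10.7% of 27305 promoters in all and 36.9% of 195 for ZNF genes on other chromosomes. For 173 of the 206 members the RefSeq start lay within 1 kb of the start in the deposited table, and the letters CCGGAAG were held by 82 of these (47.4%). CCAAT was found in 53.4% of member promoters and 35.7% of all, GGGCGG in 67% and 44.6%, and TATAAA in 1.94% and 12%. Promoters of ZNF genes on other chromosomes lay between these, with CCAAT in 43.6%, GGGCGG in 62.1% and TATAAA in 4.1%. TGANTCA, the AP-1 site, was found in 6.31% of member promoters and 7.76% of all. In the cluster of ZNF91 all 26 matched promoters held CCAAT and 18 held CCGGAAG, and in the last cluster 33 of 53 held each of them. The share with CCGGAAG differed little by call, at 42.6% of 54 promoters of higher members, 39.1% of 23 of lower members and 47.3% of 129 of members not called. A match says only that these letters are present.

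Of 31 genes of corepressor and heterochromatin factors, many of them partners of KRAB zinc finger proteins, 9 (29%) were higher, 9 (29%) lower and 13 not called, with a median log2 fold change of −0.14. Both shares are near those of all genes (24.7% and 24.9%). TRIM28, the KRAB corepressor (ENSG00000130726, chr19:58544064-58550722), lies just beyond the last cluster. It was at 219.7, 222.1 and 202.4 CPM in UVB + sauchinone, against 111.0, 118.9 and 92.8 CPM in UVB, and rose on the log2 scale by 0.997 ± 0.086 (edgeR adjusted p = 2.6e-09). All UVB + sauchinone libraries were above all UVB libraries, and the call held in all 17 alternatives. SETDB1, the histone methyltransferase that TRIM28 recruits, was at 29.3, 29.9 and 32.0 CPM in UVB + sauchinone, against 29.1, 27.4 and 28.6 CPM in UVB (0.10 ± 0.094, edgeR adjusted p = 0.39). ATF7IP, the partner that stabilises SETDB1, fell by 0.55 (edgeR adjusted p = 2.3e-05), a call lost with the span trend removed (−0.15, edgeR adjusted p = 0.15, within 2.4e-08 to 0.15 over all alternatives). MORC2, a silencing factor of the HUSH pathway, rose by 0.54, and MBD1, a methyl-CpG binding protein, by 0.50 (edgeR adjusted p = 9.2e-06 and 2.9e-05). ATRX, a chromatin remodeller of heterochromatin, was at 43.8, 48.9 and 45.3 CPM in UVB + sauchinone, against 118.3, 101.5 and 155.2 CPM in UVB, and fell by 1.44 ± 0.11 (edgeR adjusted p = 5.9e-10). ATRX spans 281.4 kb, and it fell by 0.61 with the span trend removed. CHD3, a NuRD remodeller, fell by 0.49 (edgeR adjusted p = 4.7e-06).

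At the count minimum, the members with the fewest counts were ZNF837, ZNF887P and ZNF575, with 61, 70 and 71 counts summed over the 6 libraries. Just outside were ZNF541, ZNF709 and ZNF208, with 40, 38 and 32. ZNF837 had 10, 20 and 11 counts in UVB + sauchinone and 11, 5 and 4 in UVB, too few to separate the groups.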

How the data were processed

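RNA was sequenced in 3 UVB + sauchinone and 3 UVB libraries of human foreskin fibroblasts, as paired reads of 150 bases per the labels. The deposited table gives raw counts per gene and FPKM for each library, both made by the authors, and the exonic size, start and end of each gene. GRCh38 is the build named in the submitters' processing notes. Aligner, counter, annotation release and the use of strand in counting are not stated in those sources, nor is the choice between poly(A) selection and rRNA depletion, which the labels give as alternatives. The deposited FPKM matched count, exonic size and total count within 0.006 for 100% of values in each library.

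Counts were tested with edgeR 4.0.16 (R 4.3.3): filterByExpr, TMM, quasi-likelihood F-test, Benjamini-Hochberg over 15704 genes, threshold 0.05. Log2 fold changes are UVB + sauchinone over UVB, and SE is the absolute log2 fold change divided by the square root of F. Totals of 20984851 to 23076388 counts make 3 counts equal to 0.13 to 0.143 CPM; counts are of PCR reads, so this covers counting error only. The edgeR step was tested on simulated counts. DESeq2 1.42.0, limma-voom 3.58.1, other normalizations and filters, a minimum fold change of 1.2, a replicate block, omission of each library and removal of a loess trend with span or exonic size were tried.

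The members, the lists and the rules were chosen with earlier results of these data known. Named were the 8 largest called rises and falls with at least 1 CPM on average and groups that did not overlap, the 6 highest FPKM, the 4 longest and 4 shortest, 13 members with described roles, the 3 members nearest the count minimum, and TRIM28, SETDB1 and the 3 corepressor genes with the smallest p in each direction; further members of 2 clusters were named after their values were seen. No test over a list was made. Same-numbered replicates did not deviate together (correlations 0.0072, −0.078 and −0.031), so numbers were taken not to pair the samples. Fingers were found by pattern in the longest coding sequence of each gene in GENCODE release 29, and KRAB motifs in any of its coding sequences. Fingers and motif of a gene can therefore come from different transcripts. Promoters are from RefSeq (GRCh38.p14).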

Additional observations from a re-analysis of the deposited data

How the results depend on the processing

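The counts of 67 higher and 27 lower members were 67 and 27 with RLE factors, 76 and 20 with total counts only, 65 and 23 in DESeq2, 67 and 25 in limma-voom, 62 and 24 with no filter beyond 1 count and 43 and 7 against a minimum fold change of 1.2, where the all-gene calls also fell to 2357 and 2623. All 67 higher and 27 lower members were shared with RLE factors. Replicate numbers did not pair the samples, and a replicate block gave 63 and 22.

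Against the minimum fold change of 1.2, 15 members were higher in the last cluster, 3 lower in the cluster of ZNF91, 37 higher and 7 lower with a KRAB motif, 28 ZNF genes on other chromosomes were lower, and 4 corepressor genes were higher and 3 lower. With the trend on span removed, the median of members was 0.063, rho with span −0.10, and the 2 clusters gave 18 higher and 2 lower. With the trend on exonic size removed, 74 members were higher and 17 lower, rho was −0.20, 2 were lower in the cluster of ZNF91 and 16 with a KRAB motif. In that cluster 4 were lower with total counts only and, with a gap of 0.5 Mb, 2 in a smaller cluster of 8. The last cluster held 43 members with a gap of 0.5 Mb (21 higher, 1 lower) and 103 with a gap of 2 Mb (42 higher, 7 lower). Members that overlap no other tested gene gave 37 and 13, of fewer genes. Except where the construction shows it, the cause was not tested.

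With each library left out in turn, members higher ran from 54 to 73, members lower from 14 to 34, their median from 0.11 to 0.20, rho with span from −0.37 to −0.29, risers of the last cluster from 21 to 25, fallers of the cluster of ZNF91 from 4 to 9, and fallers with a KRAB motif from 12 to 29.

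Of 1000 comparisons of 59 named genes with 17 settings, 902 kept direction and call, 70 lost the call, 2 gained it and 26 changed sign, all in genes not called. With total counts only, ZNF274 was 0.043 and ZNF382 0.026. With the trend on span removed, ZNF675 was 0.19, ZNF420 0.27, ZNF331 0.042 and ZNF224 −0.13. With the trend on exonic size removed, ZNF274 was 0.17, ZNF331 0.13, ZNF558 0.050 and ZNF382 0.27. With single libraries left out, the range was −0.13 to 0.14 for ZNF274, −0.097 to 0.15 for ZNF432, −0.15 to 0.11 for ZNF579, −0.084 to 0.12 for ZNF224, −0.071 to 0.084 for ZNF568, −0.14 to 0.054 for ZNF420, −0.17 to 0.084 for ZNF331, −0.25 to 0.00015 for ZNF558 and −0.15 to 0.17 for ZNF382. Depth limits the members nearest the count minimum, where the SE of ZNF837 is 0.53.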
